A study of Mus musculus with 12 samples.

Results

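A set of 8 genes that move cholesterol out of the cell, store it or sense it were followed in BV2, an immortalised mouse microglial line. They were chosen by name for their known roles and are 8 of the 46078 genes listed: Apoe, the transporters Abca1 and Abcg1, the liver X receptors Nr1h2 and Nr1h3, the oxysterol enzyme Ch25h, the lipoprotein lipase Lpl and the esterifying enzyme Soat1. Wild type (WT) cells and cells knocked out (KO) for Atg5, a gene needed to form autophagosomes, were kept for 24 h in medium with fetal bovine serum, with or without interferon gamma (IFNγ) at 1 U/mL. Each of the 4 groups, WT medium, WT IFNγ, KO medium and KO IFNγ, had 3 libraries with the letters A, B and C. The submitters also state that a condition's replicates went into one library; the 3 columns per group were read here as barcoded replicates sequenced as a pool, and n and the p-values rest on that reading. How many KO clones were used is not given in the sources used here. Nuclei were removed before poly-A RNA was taken, and reads come from the 3' ends of transcripts, so RNA held in the nucleus was left out.

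Excess cholesterol in macrophages and microglia is oxidised to oxysterols, which bind the liver X receptors (LXRs). An LXR pairs with a retinoid X receptor on DNA and switches on genes for efflux, among them Abca1, Abcg1 and, in mouse and human macrophages, Apoe. ABCA1 and ABCG1 hand cholesterol to lipoprotein particles, APOE is the main apolipoprotein of the brain, and SOAT1 turns cholesterol that is not exported into esters for lipid droplets. Lpl releases fatty acids from lipoprotein triglyceride, and Ch25h makes an oxysterol and is known as an interferon-stimulated gene in mouse macrophages. Apoe is a microglial gene of long-standing interest in neurodegeneration.

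Of the 8 genes, 1 changed past the threshold, where IFNγ changed 6.65% of all tested genes in WT cells and 7.36% in KO cells. Apoe fell with IFNγ in both genotypes, by 1.59 on the log2 scale (SE 0.23) in WT cells and by 1.81 (SE 0.23) in KO cells. Abca1, Abcg1, Nr1h2, Nr1h3, Lpl and Soat1 passed in no comparison, and Ch25h had no read in any library. None of the 8 genes passed between KO and WT cells, and none passed for the difference between the genotypes' responses.

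Levels below are given as log2 of 1 plus the normalised count, and an adjusted p is limma's with Benjamini-Hochberg adjustment over the 10981 genes measured well enough to test. Statements that groups do or do not overlap describe these libraries only, and the share of all genes that separate in that way was not counted. Depth was 3329849 to 7330435 reads per library. The library WT IFNγ C stood apart from the other treated libraries: the interferon-induced GTPase Gbp2 was at 10.18 there and at 12.52 and 12.70 in replicates A and B, and the transcription factor Irf1 at 8.93 against 11.22 and 11.07. Gbp2 (8.45 in WT and 10.56 in KO cells) and Irf1 (3.91 and 4.38) rose in both genotypes. Atg5 itself differed between KO and WT by 0.37 in medium (adjusted p = 0.595) and by -0.13 with IFNγ (adjusted p = 0.817), and 3' reads do not check an edit elsewhere in the gene. All 15 microglia and macrophage markers had reads, 13 of them enough to test, and their summed level was 13.07 to 13.59 over the 12 libraries; Sall1, a microglial identity factor, had 1 read and Fcrls 21 reads in all. Of 8 markers each, 4 of the astrocyte list, 5 of the adipocyte and muscle list and 7 of the hepatocyte list had no read.

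Apoe lies on chromosome 7 within a cluster of apolipoprotein genes, and its promoter is printed with those of Apoc4 and Apoc2 because Apoc2 also fell with IFNγ in both genotypes and Apoc4 in WT cells. The sequences are RefSeq's on GRCm38.p6, the 250 bases before each start, read 5' to 3' on the minus strand. They are Apoe at chr7:19699189-19699438, Apoc4 at chr7:19681461-19681710 and Apoc2 at chr7:19677942-19678191. Capitals mark the hexamer AGGTCA, which LXRs and other nuclear receptors bind.
Apoe: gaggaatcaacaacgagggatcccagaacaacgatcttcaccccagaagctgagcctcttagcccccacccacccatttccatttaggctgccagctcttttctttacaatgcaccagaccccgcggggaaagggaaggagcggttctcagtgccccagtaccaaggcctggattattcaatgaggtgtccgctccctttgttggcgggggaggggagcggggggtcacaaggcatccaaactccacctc
Apoc4: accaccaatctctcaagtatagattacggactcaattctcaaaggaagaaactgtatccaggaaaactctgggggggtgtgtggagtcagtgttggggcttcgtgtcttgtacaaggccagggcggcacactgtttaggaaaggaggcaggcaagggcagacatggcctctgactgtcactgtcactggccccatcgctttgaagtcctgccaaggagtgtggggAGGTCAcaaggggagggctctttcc
Apoc2: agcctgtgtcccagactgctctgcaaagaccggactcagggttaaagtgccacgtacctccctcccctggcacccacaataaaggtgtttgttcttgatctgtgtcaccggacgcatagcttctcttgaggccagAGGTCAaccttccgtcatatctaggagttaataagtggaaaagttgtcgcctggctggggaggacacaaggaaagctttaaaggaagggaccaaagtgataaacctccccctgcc
The Apoe stretch holds no AGGTCA on either strand, Apoc4 holds 1 at -25 to -20 and Apoc2 holds 1 at -115 to -110, counted from the first transcribed base. Windows of 300 bases, 250 before and 50 after each start, were searched on both strands for 4 patterns with fixed letters. These were AGGTCA, its direct repeat with a spacer of 4 bases (the consensus LXR element), the gamma-activated element TTCNNNGAA, and the interferon response core. The core is a repeat of GAAA with a spacer of 2 bases. The windows of Abca1, Apoe, Ch25h, Nr1h2, Nr1h3 and Soat1 held none of the 4, and Apoc2 had a second AGGTCA at 43 to 48. AGGTCA is part of the repeat element, so the searches overlap. Over all 32851 windows, 16.3% held AGGTCA, 0.0152% the repeat, 8.3% the gamma-activated element and 3.44% the interferon core. Among the 10489 windows of tested genes 0% held the repeat, so its absence above does not set these genes apart. A match is a run of letters and not a shown site, and these windows do not reach distant enhancers. Sites whose letters vary from these patterns were not searched, so a window without a match may still hold one. Abcg1 and Lpl were not matched to a promoter entry. The Nr1h3 windows (91194986 to 91195285 and 91195067 to 91195366) lie inside the annotated gene, so its outermost start was not searched. For Nr1h2 the bases checked just after the start were found in no annotated transcript of the gene.

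Apoe (ENSMUSG00000002985, chromosome 7, 19696109 to 19699188 on GRCm38, minus strand) is the secreted lipoprotein component that carries cholesterol away from the cell. In WT cells it was at 12.96, 12.82 and 13.20 in medium A, B and C and at 11.22, 10.94 and 12.05 with IFNγ. In KO cells Apoe was at 12.05, 12.45 and 12.46 in medium and at 10.54, 10.43 and 10.55 with IFNγ. All 6 treated libraries were below the medium libraries of their genotype, WT IFNγ C was the highest treated library, and the KO IFNγ libraries were the closest together. Each value rests on 1252 to 10538 reads.

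In WT cells Apoe was 12.99 ± 0.19 (SD, n = 3) in medium and 11.40 ± 0.58 with IFNγ, a fall of 3.02-fold (log2 change -1.59, 95% interval -2.07 to -1.11, adjusted p = 9.48e-05). The KO means were 12.32 ± 0.24 and 10.51 ± 0.07, a fall of 3.51-fold (-1.81, interval -2.29 to -1.33, adjusted p = 2.06e-05). The responses differed by -0.22 (SE 0.32, interval -0.90 to 0.46, adjusted p = 0.919), so a difference between genotypes of up to the ends of that interval could not be told from none. Without WT IFNγ C, the library with the weaker interferon response, the fall in WT cells was 1.92 (log2 change -1.92, adjusted p = 1.52e-06) and the responses differed by 0.10 (adjusted p = 0.923). Astrocytes, the main source of Apoe in the brain, left no read of their markers Aldh1l1, Aqp4, Gja1 and Slc1a3. Gfap, the astrocyte filament protein, had 1, 4 and 4 reads in WT medium A, B and C, where Apoe was highest, and 0 in the other 9 libraries, S100b had 3 reads and Slc1a2 had 1, all in KO medium C. The part of astrocyte-type RNA in the Apoe result was not tested. The summed level of the 8 astrocyte markers was 7.38 to 7.93 in WT medium, 6.88 to 7.55 in WT IFNγ, 7.35 to 7.98 in KO medium and 6.56 to 7.02 in KO IFNγ. Nearly all of that sum was Aldoc, with means of 7.67, 7.13, 7.71 and 6.77 in that order. The one tested, the glycolytic enzyme Aldoc, fell in KO cells (-0.93, adjusted p = 0.0273), a call lost without KO medium A or C or KO IFNγ A or C (0.0769 to 0.128) and with only the KO groups in the fit (0.0555); in WT cells its difference was -0.54 (adjusted p = 0.239). In bulk RNA, fewer cells that express a gene and less RNA per cell cannot be told apart.

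Apoe was lower in KO than in WT cells in each treatment, though neither difference passed over all genes. In medium the difference was -0.68 (SE 0.23, interval -1.15 to -0.20, adjusted p = 0.374, unadjusted p = 0.00828). With IFNγ it was -0.89 (SE 0.23, interval -1.37 to -0.41, adjusted p = 0.095, unadjusted p = 0.000952). The 3 KO libraries did not overlap the 3 WT libraries in either treatment. The share of all genes that separate this way was not counted. By adjusted p, a different measure, 0.428% of all genes were called between genotypes in medium and 0.492% with IFNγ. Without WT IFNγ C the difference with IFNγ was -0.57 (adjusted p = 0.18). From highest to lowest mean the groups ran WT medium, KO medium, WT IFNγ and KO IFNγ, and KO medium and WT IFNγ met at 12.05.

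**Figure D1:**
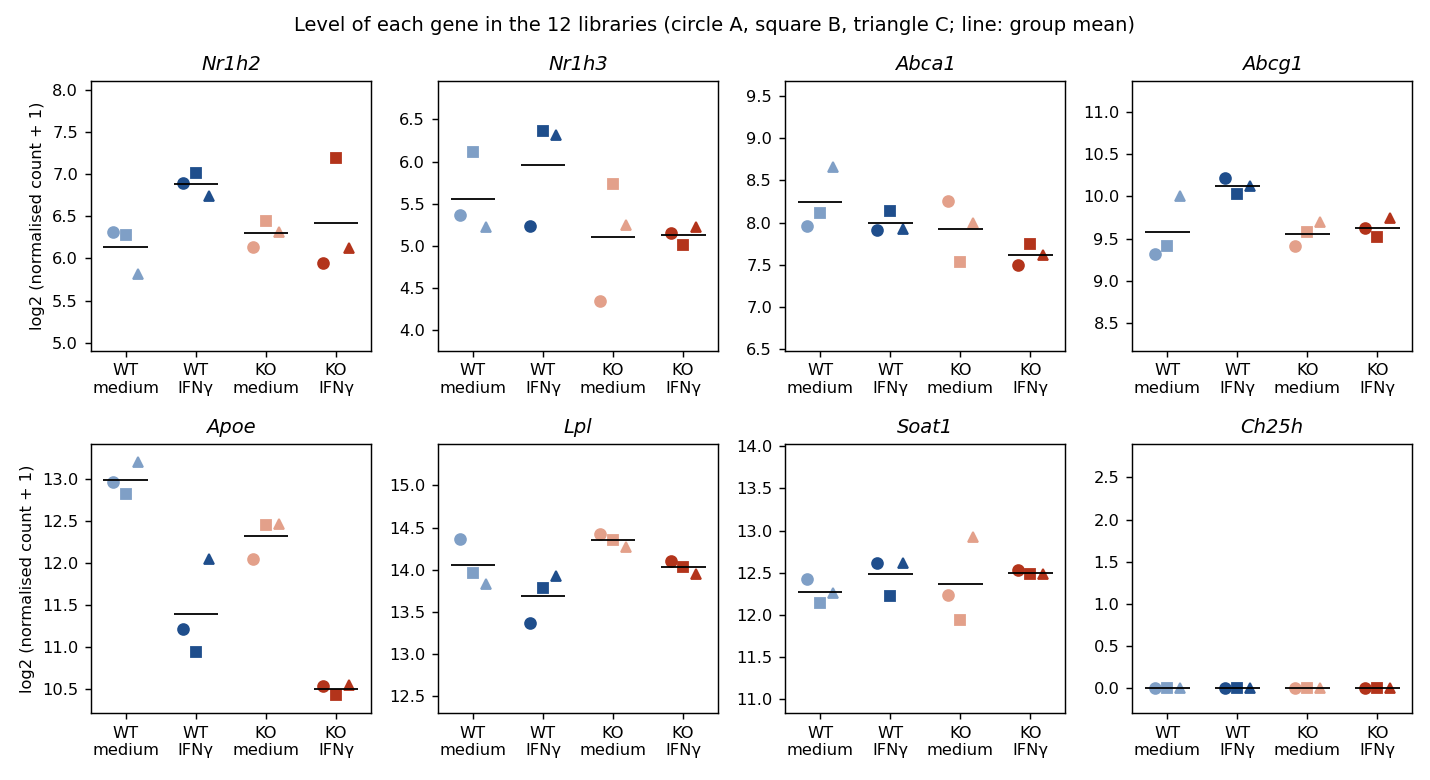
Level of each measured gene, as log2 of the normalised count plus 1, in the 12 libraries, with a circle, square or triangle for replicate A, B or C and a line for the group mean. Apoe lies between 12.82 and 13.20 in WT medium and between 10.43 and 10.55 in KO IFNγ, while treated and untreated libraries of Abca1 and Soat1 overlap within each genotype.

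Among the 7 of the 8 genes that were measured well enough to test, 1 was called with IFNγ in WT cells and 1 in KO cells, each time Apoe and downward. The median change of the 7 genes was 0.21 in WT and 0.01 in KO cells, beside -0.02 and 0.01 over all genes. Of all tested genes IFNγ raised 4.53% and lowered 2.12% in WT cells, and raised 4.67% and lowered 2.69% in KO cells. The counts given below for lists of genes are to be read beside these shares. Between genotypes limma called 0 of the 7 in medium (1 at an unadjusted p under 0.05, 0 by voom) and 0 with IFNγ (3 and 0). Over all 10981 genes these counts were 907 and 32 in medium and 1317 and 87 with IFNγ. For the difference in response limma called 0 of the 7 (0 unadjusted, 0 by voom), beside 0% of all genes (792 unadjusted, 2 by voom).

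The LXRs themselves were measured at low counts. Nr1h2 (ENSMUSG00000060601, chromosome 7, 44549616 to 44553951), LXR beta, the form found in most tissues, had 43 to 158 reads per library. It was at 6.31, 6.28 and 5.82 in WT medium A, B and C and at 6.90, 7.01 and 6.74 in WT IFNγ, so the treated libraries stood above the untreated ones. The change was 0.75 (SE 0.30, interval 0.12 to 1.38, unadjusted p = 0.0229) and did not pass (adjusted p = 0.16).

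In KO cells Nr1h2 was at 6.14, 6.45 and 6.31 in medium and at 5.95, 7.19 and 6.12 with IFNγ. KO IFNγ B was the highest of all 12 libraries while the other KO IFNγ libraries were below the KO medium mean of 6.30 ± 0.15. The change was 0.12 (SE 0.30, interval -0.52 to 0.75, adjusted p = 0.885) and became -0.27 without KO IFNγ B. The responses differed by -0.63 (SE 0.43, adjusted p = 0.781).

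Nr1h3 (ENSMUSG00000002108, chromosome 2, 91184061 to 91202834), LXR alpha, the form of macrophages, liver and fat, had 12 to 85 reads per library. It was at 5.36, 6.11 and 5.22 in WT medium, at 5.23, 6.36 and 6.31 in WT IFNγ, at 4.35, 5.73 and 5.25 in KO medium and at 5.15, 5.01 and 5.22 in KO IFNγ. The groups overlapped except for KO IFNγ, whose highest library lay just under the lowest of WT IFNγ. Changes with IFNγ were 0.40 in WT (SE 0.40, interval -0.44 to 1.23, adjusted p = 0.638) and 0.01 in KO cells (interval -0.82 to 0.85, adjusted p = 0.992). KO minus WT was -0.84 with IFNγ (SE 0.40, unadjusted p = 0.0496, adjusted p = 0.415) and -0.45 in medium (adjusted p = 0.864). Its exons share 34 bases on the same strand with Gm13783, which had 10 reads in all.

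Of 10 partners, corepressors and related receptors of the LXRs, 7 could be tested. In WT cells limma called 0 of them (1 unadjusted, 0 by voom; median -0.47). In KO cells 1 fell, and the median was 0.24. It was Rxra, the retinoid X receptor that pairs with LXRs, at 7.41 ± 0.27 in KO medium and 6.26 ± 0.19 in KO IFNγ (-1.15, SE 0.26, adjusted p = 0.00911). In WT cells Rxra differed by -0.53 (adjusted p = 0.276).

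Abca1 (ENSMUSG00000015243, chromosome 4, 53030787 to 53159895), the transporter that loads cholesterol onto lipid-poor apolipoproteins, was at 7.96, 8.12 and 8.66 in WT medium and at 7.91, 8.14 and 7.92 in WT IFNγ. KO libraries were at 8.26, 7.53 and 7.99 in medium and at 7.50, 7.75 and 7.62 with IFNγ. Treated and untreated libraries overlapped in both genotypes. With IFNγ the KO libraries lay below the WT ones, a difference that did not pass. The changes were -0.26 in WT (SE 0.23, interval -0.74 to 0.22, adjusted p = 0.588) and -0.31 in KO cells (SE 0.23, interval -0.79 to 0.17, adjusted p = 0.519). KO minus WT was -0.32 in medium (adjusted p = 0.792) and -0.37 with IFNγ (adjusted p = 0.552), and the responses differed by -0.05 (adjusted p = 0.985).

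Abcg1 (ENSMUSG00000024030, chromosome 17, 31057675 to 31117988), which exports cholesterol to mature high-density lipoprotein, was at 9.32, 9.41 and 10.00 in WT medium and at 10.22, 10.03 and 10.13 in WT IFNγ. All treated WT libraries were above the untreated ones, with WT medium C close to them. The change was 0.55 (SE 0.19, interval 0.16 to 0.94, unadjusted p = 0.00869) and did not pass (adjusted p = 0.0911). Without WT medium C it was 0.76 and passed (adjusted p = 0.0204).

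In KO cells Abcg1 was at 9.41, 9.58 and 9.70 in medium and at 9.63, 9.52 and 9.74 with IFNγ, with the groups interleaved. The change was 0.07 (SE 0.19, interval -0.32 to 0.47, adjusted p = 0.886). With IFNγ the KO libraries lay below the WT ones, by -0.50 (interval -0.89 to -0.10, unadjusted p = 0.0164, adjusted p = 0.286). In medium the difference was -0.02 (adjusted p = 0.996). The responses differed by -0.48 (SE 0.27, interval -1.03 to 0.08, adjusted p = 0.736).

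**Figure D2:**
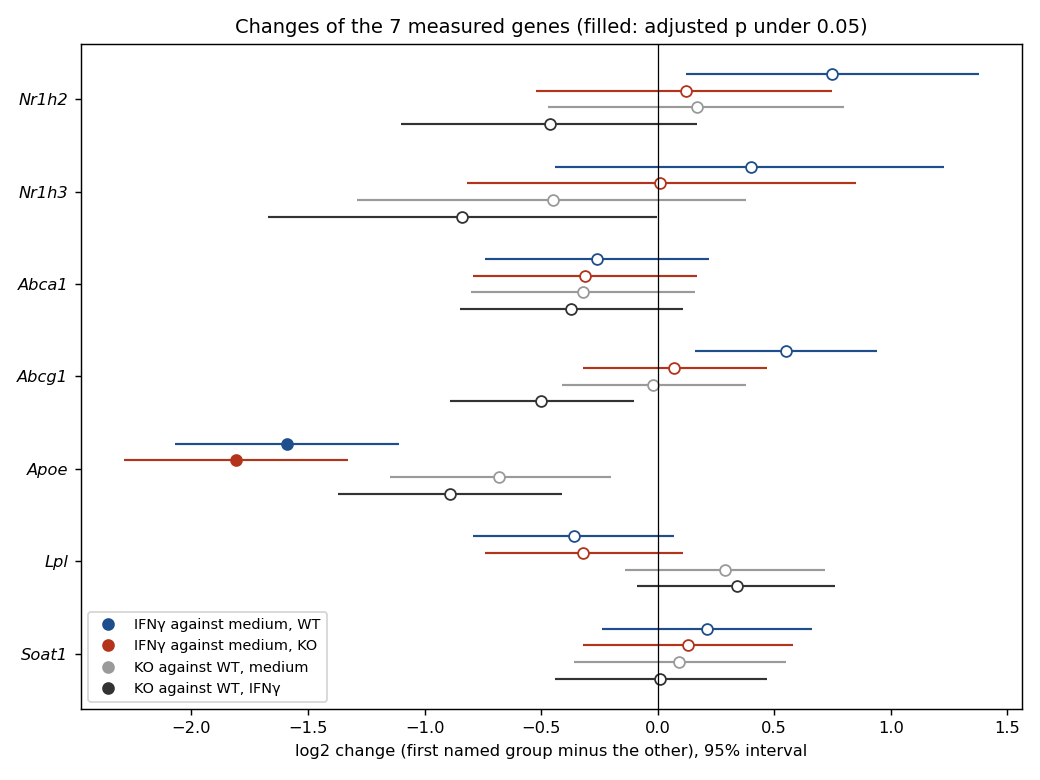
Log2 change of each measured gene in the 4 comparisons, on the horizontal axis, with 95% intervals from limma, filled where the adjusted p is under 0.05. Both filled points are Apoe with IFNγ, at -1.59 in WT and -1.81 in KO cells, and the intervals of Nr1h3 are the widest.

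Lpl (ENSMUSG00000015568, chromosome 8, 68880491 to 68907448) was at 14.37, 13.96 and 13.83 in WT medium and at 13.37, 13.78 and 13.93 in WT IFNγ. KO libraries stood at 14.42, 14.35 and 14.27 in medium and at 14.10, 14.03 and 13.95 with IFNγ. The WT groups overlapped. In KO cells each treated library lay below each untreated one, and with IFNγ each KO library lay above each WT one, but neither difference passed. How many of all genes separate in that way was not counted. The changes were -0.36 in WT (SE 0.20, interval -0.79 to 0.07, adjusted p = 0.344) and -0.32 in KO cells (SE 0.20, interval -0.74 to 0.11, adjusted p = 0.44). KO minus WT was 0.29 in medium (adjusted p = 0.792) and 0.34 with IFNγ (adjusted p = 0.54). The responses differed by 0.05 (adjusted p = 0.984).

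Of 17 genes that mature, anchor or inhibit lipoprotein lipase, 6 could be tested and 8 had no read, among them Gpihbp1, which holds the enzyme on capillaries. In WT cells limma called 0 of the 6 (1 unadjusted, 0 by voom; median 0.14). In KO cells 1 fell and the median was -0.12. This was Sdc1, a heparan sulfate proteoglycan of the cell surface (-1.07, adjusted p = 0.00732), whose call was lost without KO IFNγ A (adjusted p = 0.0537).

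Soat1 (ENSMUSG00000026600, chromosome 1, 156424525 to 156474331) was at 12.42, 12.14 and 12.26 in WT medium and at 12.62, 12.22 and 12.62 in WT IFNγ. The KO values were 12.24, 11.94 and 12.92 in medium and at 12.53, 12.48 and 12.48 with IFNγ. KO medium C was the highest library and KO medium B the lowest, and in each comparison the groups overlapped. The changes with IFNγ were 0.21 in WT (SE 0.22, interval -0.24 to 0.66, adjusted p = 0.651) and 0.13 in KO cells (interval -0.32 to 0.58, adjusted p = 0.816). KO minus WT was 0.09 in medium (adjusted p = 0.964) and 0.01 with IFNγ (adjusted p = 0.989), and the responses differed by -0.08 (adjusted p = 0.98).

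Ch25h (ENSMUSG00000050370, chromosome 19, 34473778 to 34475164) had 0 reads in each of the 12 libraries, and so in the treated libraries too. A count of 0 allows up to 3 reads, of 66034587 over all libraries. That limit covers counting error only. Ch25h shares 159 exonic bases with Gm26902 on the opposite strand, which had 0 reads as well.

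The neighbours of Apoe were examined after the fall of Apoe was known, in a window of 100 kb around its start. The window holds 16 annotated genes, 9 of which were measured well enough to test. Besides Apoe, Apoc2 was called in both genotypes, Apoc4 in WT cells and, upward, Relb in both. Clptm1 differed by 0.07 and -0.17, Tomm40 by 0.08 and 0.23, Nectin2 by 0.50 and -0.09, and Clasrp by 0.07 and -0.03 in WT and KO cells, and none of these was called.

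Apoc2 (chromosome 7, 19671579 to 19677941), the cofactor that activates lipoprotein lipase, was at 5.87, 6.36 and 6.62 in WT medium and at 3.47, 4.32 and 4.42 in WT IFNγ. The KO values were 4.75, 5.29 and 5.04 in medium and 0, 3.35 and 2.03 with IFNγ. Treated libraries lay below untreated ones in each genotype. The changes were -2.22 in WT (SE 0.61, adjusted p = 0.0332) and -3.24 in KO cells (SE 0.61, adjusted p = 0.00179). The WT call was lost without WT medium A (adjusted p = 0.0671), B (0.118) or C (0.128), without WT IFNγ A (0.139) or B (0.0768), with no filter (0.0882) and with a pseudocount of 0.5 (0.0776).

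Apoc4 (chromosome 7, 19678083 to 19681479), a minor apolipoprotein, had 16, 12 and 32 reads in WT medium A, B and C and none in WT IFNγ. It was at least 14.3-fold lower with IFNγ, against a floor of 3 reads over the group (adjusted p = 0.0185), and it entered the test through its medium libraries. In KO cells it had 0, 17 and 7 reads in medium and 0, 4 and 1 with IFNγ, and was not called (-1.28, adjusted p = 0.551). The WT call was lost without any 1 of WT medium A, B or C or WT IFNγ A or B (adjusted p 0.0504 to 0.114).

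Apoc1 (chromosome 7, 19689481 to 19692660), which inhibits lipoprotein uptake, differed by -0.95 (adjusted p = 0.697) in WT cells. In KO cells the log2 change was -2.05 (adjusted p = 0.335), from 13 reads in medium to 1 under IFNγ. By reads, another measure, that is 14.6-fold fewer (95% counting interval 2.2 to 622). Apoc2 and Apoc4 share 646 and 119 exonic bases with the read-through gene Gm44805. Gm44805 is not among the genes listed, so no reads were counted for it, and reads from its transcripts could be counted for Apoc2 or Apoc4. Relb, a subunit of NF-kB, rose by 1.86 in WT (SE 0.29, adjusted p = 0.000273) and by 1.94 in KO cells (adjusted p = 0.000158).

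**Figure D3:**
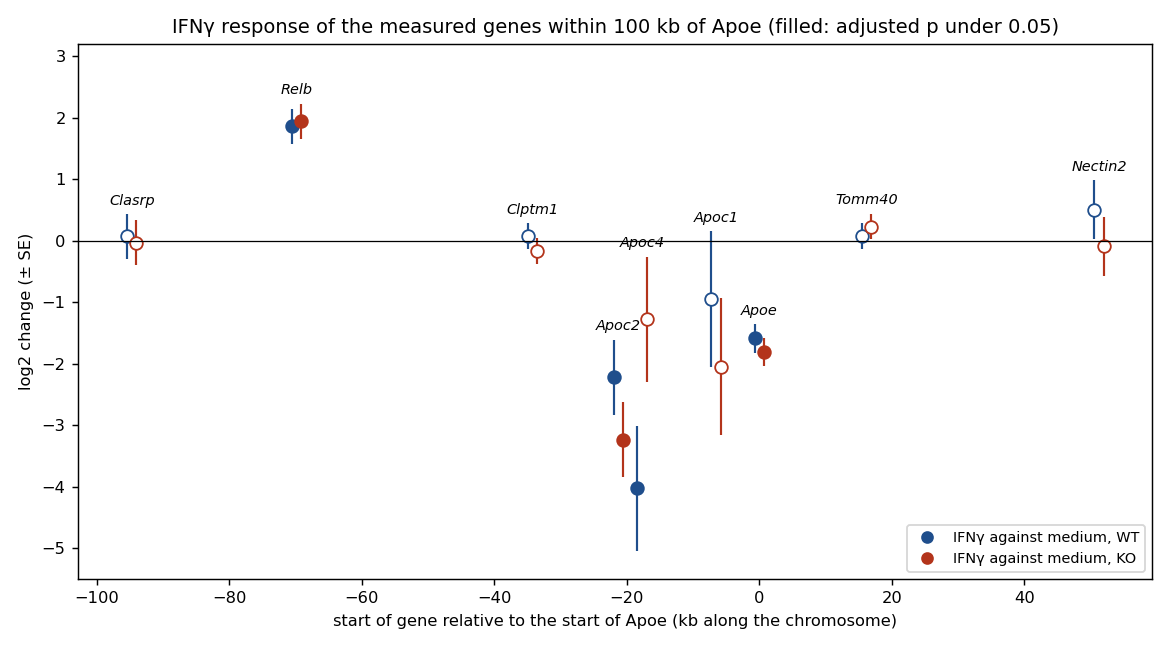
Log2 change with IFNγ (± SE) in WT and KO cells of the measured genes within 100 kb of Apoe, by the distance of each gene's start from that of Apoe in kb along the chromosome, filled where the adjusted p is under 0.05. Apoe and Apoc2 lie below 0 in both genotypes and Relb lies above, while Clptm1, Tomm40 and Clasrp lie near 0.

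Of 14 other genes known as LXR targets, among them Apoc1, Apoc2 and Apoc4, 9 could be tested. Apoc1 and Apoc4 entered the test only through their medium libraries and are left out of the counts, a choice made after seeing the data. Of the other 7, 3 fell in WT cells (median -0.67 beside -0.02 over all genes, 6 of 7 below 0) and 4 in KO cells (median -0.79 beside 0.001, 7 of 7 below 0), and none rose. Over all tested genes 2.12% were called lower in WT and 2.69% in KO cells. With both genes kept the medians were -0.83 and -1.28. Apoe, Abca1 and Abcg1, named above as LXR targets, are among the 8 genes and so outside this list. Apoe fell in both genotypes. Abca1 (-0.26 in WT and -0.31 in KO cells) and Abcg1 (0.55 and 0.07) were not called. Besides Apoc2, those called among the 7 were Scd2, a fatty acid desaturase, Mylip, a ubiquitin ligase that limits lipoprotein uptake, and Arl4c, a small GTPase.

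Scd2 went from 13.06 ± 0.26 to 12.14 ± 0.09 in WT (-0.92, SE 0.18, adjusted p = 0.00263) and from 12.78 ± 0.17 to 11.99 ± 0.14 in KO cells (-0.79, adjusted p = 0.00889). Mylip went from a range of 8.71 to 9.15 down to 7.99 to 8.34 in WT (-0.83, SE 0.21, adjusted p = 0.0181) and from 9.22 ± 0.19 to 7.75 ± 0.32 in KO cells (-1.47, adjusted p = 7.9e-05). Arl4c went from 9.60 ± 0.21 to 7.93 ± 0.44 in KO cells (-1.67, SE 0.23, adjusted p = 5.12e-05), and in WT cells its change was -0.67 (adjusted p = 0.0903). The genotypes' responses differed by -0.64 for Mylip (adjusted p = 0.682), and that difference did not pass for Arl4c either (adjusted p = 0.542). Srebf1, the fatty acid synthesis regulator, differed by -0.08 in WT and -0.55 in KO cells, the phospholipid enzyme Lpcat3 by 0.05 and -0.30, and Mertk, a receptor for dying cells, by -0.09 and -0.14, none of them called. The call of Mylip in WT cells was lost without WT medium A or B or WT IFNγ A or B (adjusted p 0.0637 to 0.0922), and that of Scd2 in KO cells without KO medium A (0.0542).

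Oxysterol enzymes and sensors gave 12 tested genes of 18, with 1 higher and 2 lower in each genotype (medians -0.05 and -0.01). Hsd3b7, which works in bile acid synthesis and clears oxysterols, rose from 5.79 ± 0.47 to 7.21 ± 0.17 in WT (1.43, SE 0.32, adjusted p = 0.00724) and from 5.48 ± 0.49 to 7.18 ± 0.43 in KO cells (1.70, adjusted p = 0.00148). Gpr183, the receptor for an oxysterol made from the Ch25h product, fell from 8.59 ± 0.16 to 7.65 ± 0.09 in WT (-0.94, adjusted p = 0.00342) and from 9.07 ± 0.09 to 8.31 ± 0.26 in KO cells (-0.75, adjusted p = 0.0164). Insig1, which holds back cholesterol synthesis, fell by 0.96 in WT (adjusted p = 0.00292) and fell by 0.84 in KO cells (adjusted p = 0.00889). Cyp27a1, the mitochondrial 27-hydroxylase of cholesterol, differed by 0.22 and -0.04 and was not called, and Cyp7b1, Cyp46a1 and Cyp39a1 had no read. In KO cells the call of Gpr183 was lost without KO medium A or C or KO IFNγ C (adjusted p 0.0557 to 0.0931), and that of Insig1 without KO medium A (0.0557) or KO IFNγ C (0.0542).

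Uptake genes gave 9 tested of 13, of which Cd36 and Msr1, both scavenger receptors, were called, upward in each genotype. Cd36 entered the test through its treated libraries, and of the other 8 genes 1 rose and none fell in each genotype (medians -0.26 and 0.18). Cd36 went from 2.51 ± 0.73 to 7.08 ± 0.72 in WT cells (4.58, SE 0.52, adjusted p = 4.25e-06). In KO cells the log2 change was 7.41 (SE 0.52, adjusted p = 1.03e-08), from 2 reads in medium to 792 under IFNγ. By reads that is 352-fold more (95% counting interval 97.1 to 2910), a measure not to be set against the WT log2 change. The responses differed by 2.84 (SE 0.73) and the difference did not pass (adjusted p = 0.379). Msr1 rose by 1.66 in WT (adjusted p = 0.0096) and by 1.92 in KO cells (adjusted p = 0.00276), and its WT call was lost without WT IFNγ B (adjusted p = 0.0833). The high-density lipoprotein receptor Scarb1 differed by -0.56 and -0.52 and was not called.

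Of 21 genes of cholesterol ester and lipid droplet handling 16 could be tested. In WT cells 3 rose and 1 fell (median 0.32, 14 of 16 above 0), and in KO cells 2 rose and 2 fell (median 0.02). Acsl1, which activates fatty acids, rose by 1.25 in WT (adjusted p = 0.000882) and 1.21 in KO cells (adjusted p = 0.00114). Npc2, which moves cholesterol out of the lysosome, went from 11.36 ± 0.28 to 12.33 ± 0.19 in WT cells (0.96, adjusted p = 0.00255) and differed by 0.45 in KO cells (adjusted p = 0.181). Plin2, the coat protein of lipid droplets, rose by 0.82 in WT cells (adjusted p = 0.0341) and differed by 0.33 in KO cells (adjusted p = 0.483). Soat2, the paralog of Soat1, rose by 2.82 in KO cells (adjusted p = 0.0329) and differed by 2.53 in WT cells (adjusted p = 0.0618).

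In the same list Stard4, a cytosolic sterol carrier, fell by 0.76 in WT (adjusted p = 0.0192) and fell by 0.81 in KO cells (adjusted p = 0.0124), and Dgat1, a triglyceride synthase, fell by 1.31 in KO cells (adjusted p = 0.0154) with -0.43 in WT cells (adjusted p = 0.508). In WT cells the calls were lost for Plin2 without WT medium A or B or WT IFNγ B or C (adjusted p 0.0883 to 0.157) and for Stard4 without WT medium A or B or WT IFNγ A or B (0.0583 to 0.0929). In KO cells they were lost for Soat2 without KO medium A or any 1 treated library (0.0747 to 0.092; the change was 1.34 without KO medium A, which had no read), with no filter (0.0832) and with only the KO groups in the fit (0.167), for Dgat1 without KO medium A (0.0705) or KO IFNγ A (0.0738), and for Stard4 without KO medium A (0.0766).

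Other ABCA and ABCG transporters gave 6 tested genes of 18, of which Abca6 passed the filter in 1 treatment only. Of the other 5, 2 fell in WT cells (median -0.30) and 1 in KO cells (median -0.71). Abca9, a transporter of little known substrate, went from 6.52 ± 0.49 to 3.48 ± 0.89 in WT (-3.05, adjusted p = 4.61e-05) and from 7.27 ± 0.33 to 4.56 ± 0.38 in KO cells (-2.71, adjusted p = 0.000169). Abca2, a transporter of late endosomes and lysosomes, fell by 1.64 in WT cells (adjusted p = 0.0046) and differed by -0.96 in KO cells (adjusted p = 0.105).

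**Figure D4:**
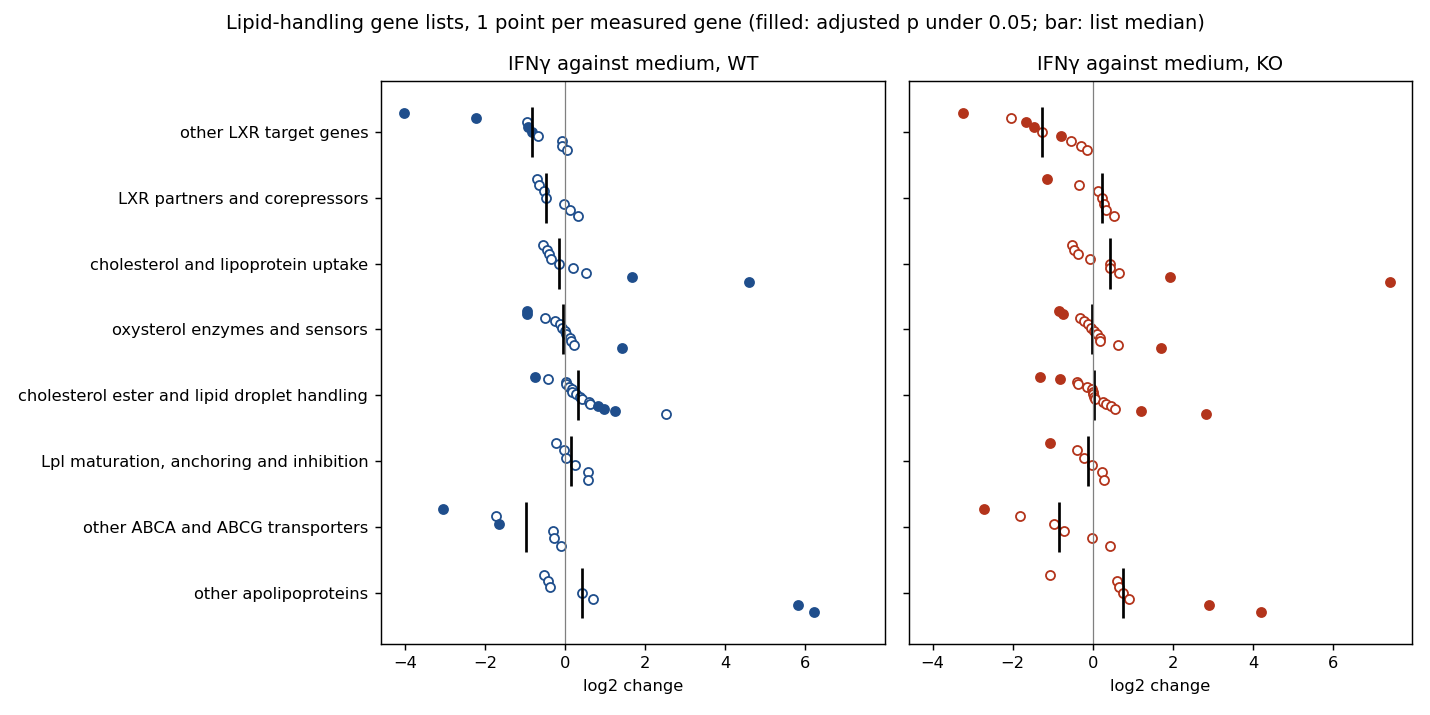
Log2 change with IFNγ on the horizontal axis, in WT and KO cells, of each measured gene of the lipid-handling lists, filled where the adjusted p is under 0.05, with a bar at the list median. The 9 tested LXR target genes have medians of -0.83 and -1.28, of which Apoc1 and Apoc4 entered through their medium libraries, and the filled points of that list are all below 0.

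Between genotypes limma called 0 genes of the LXR partner, LXR target, uptake, oxysterol, ester, lipase partner and transporter lists in either treatment. At an unadjusted p under 0.05 there were, in that order, 1, 1, 2, 3, 0, 1 and 0 in medium and 4, 3, 2, 1, 6, 0 and 2 with IFNγ, beside 8.26% of all genes in medium (907) and 1317 of 10981 with IFNγ. Of these lists voom called 0 genes in medium and 1 with IFNγ, in the ester list.

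The genes whose pattern over the 12 libraries was most like each of the 7 measured genes are given by Pearson r, as a description, among 8668 genes with a mean of at least 5. All 12 libraries share the treatment split, so any 2 genes that respond to IFNγ correlate. Apoe was most like Sulf2 (r = 0.96), Mgat4b (0.94) and Ccl9 (0.94), and Abca1 most like Tmem97 (0.88), Chmp6 (0.86) and Klhl9 (0.86). Abcg1 was most like Anxa2 (0.89), Ift22 (0.88) and Cd86 (0.86), and Lpl most like Cbx6 (0.97), Rsrc1 (0.95) and Ccar1 (0.93). Nr1h2 was most like Mms19 (0.90), Snx12 (0.88) and Rit1 (0.87), Nr1h3 most like Brms1 (0.90), Cfap20 (0.84) and Tbc1d32 (0.83), and Soat1 most like Zgrf1 (0.86), Phospho2 (0.86) and Hcfc2 (0.85). Within the 7 genes Abcg1 and Lpl ran opposite to each other (r = -0.80, and -0.64 for deviations from the group means), and Apoe and Abca1 together over all libraries (0.57) but not within groups (-0.18).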

How the data were processed

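The authors deposited 1 table of log2 values, each the log2 of a read count divided by a size factor of its library, plus 1; undoing this returns whole reads for 100% of the values, with a tolerance of 0.01. Per the submitters' processing notes, GRCm38 was the build and the tools were STAR, HTSeq 0.6.1, DESeq2 1.10.1 and FastQC 0.11.2, with no roles stated. Whether reads were counted by strand is not given in the sources used here. Per the labels, oligo-dT primers with barcodes were used, samples were pooled by Actb level, and replicates were made independently. Every column of values was mapped to a sample and 0 were left unused.

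Of 16924 genes with a read, the 10981 that reached 3 on the log2 scale in 3 or more of the 12 libraries were tested. R 4.3.3 with limma 3.58.1 fitted the deposited values, with a mean-variance trend, 1 mean per group, 8 residual degrees of freedom, two-sided, called at an adjusted p under 0.05. The fit was also run on simulated data without a deviating library such as WT IFNγ C, so that run does not show how well it works here. Alternatives were voom on the recovered reads, other scalings, filters and pseudocounts, only the groups compared, a replicate block and leaving out each library. The p-values measure the spread between these libraries. Intervals of read ratios and floors cover counting error only.

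Replicate letters were not taken as pairs, and the fit with a block is in the closing section. The 8 genes and the lists were chosen with earlier results of these data known. Named beside the 8 genes are up to 4 called genes of each list by size, 3 genes by likeness, Irf1, Gbp2 and Atg5, while a few others are not reported here; uncalled list genes named as examples and the neighbours of Apoe were chosen after their values were seen. Positions come from GENCODE M21.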

Additional observations from a re-analysis of the deposited data

How the results depend on the processing

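Apoe kept its fall with IFNγ and its call in every alternative run, with a log2 change of -1.92 to -1.36 in WT cells (limma or voom adjusted p 1.52e-06 to 0.00153) and -1.95 to -1.74 in KO cells (5.34e-06 to 0.000288). The number of the 8 genes called in WT cells was 1 to 2 on leaving out single libraries, the second being Abcg1 without WT medium C, and 1 was called between treated genotypes with a replicate block, Apoe at -0.89 (adjusted p = 0.0459). The labels do not say what a letter shares, and 2 of 18 correlations of same-letter libraries exceeded 0.1, so the letters were not taken as pairs. In 24 of 36 comparisons of a library with another group its own letter matched best, where 12 would do so with no sharing; this is a hint from the data that letters share something.

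Over all genes, leaving out single libraries gave 424 to 1084 calls for IFNγ in WT (main 730), 513 to 703 in KO cells (main 808), 24 to 39 between genotypes in medium (main 47), 23 to 83 with IFNγ (main 54) and 0 to 3 for the difference in response (main 0). With only the groups compared there were 23 calls in medium and 29 with IFNγ, and the difference in response could not be fitted. Between treated genotypes voom gave 87, no filter 32 and the replicate block 89; for the difference in response voom gave 2, a pseudocount of 0.5 gave 1 and the block 1. The cause was not tested.

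Small changes that passed nowhere changed sign. With IFNγ in KO cells Nr1h3 was at -0.19 with voom, -0.06 with quantile normalisation and -0.01 with median centring. Between treated genotypes Soat1 was at -0.02 with voom and -0.01 with quantile normalisation. Leaving out single libraries gave ranges that cross 0, in KO cells with IFNγ for Nr1h3 (-0.36 to 0.32), Nr1h2 (-0.27 to 0.35), Soat1 (-0.08 to 0.41) and Abcg1 (-0.003 to 0.14), between genotypes for Abcg1 in medium (-0.14 to 0.19) and Soat1 in medium (-0.18 to 0.31) and with IFNγ (-0.12 to 0.08), and for the difference in response of Abca1 (-0.26 to 0.12), Apoe (-0.45 to 0.10), Lpl (-0.12 to 0.17) and Soat1 (-0.29 to 0.20). No scaling moved the median of all genes by over 0.1. Low counts limit the precision for Nr1h3, Apoc1, Apoc2 and Apoc4, and Ch25h had no read.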

Other observations

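Apolipoproteins outside the Apoe cluster gave 7 tested genes of 15. Apol9a and Apol9b were called upward with IFNγ in each genotype, but both entered the test only through their treated libraries; the other 5 had medians of -0.37 in WT and 0.65 in KO cells. Apol9a and Apol9b are close paralogs that can share reads, so their values are uncertain singly. Apol9a had 1 read in WT medium and 239 under IFNγ, which is 335-fold more (95% counting interval 59.6 to 13300), and was at least 16.9-fold higher in KO cells. Apol9b was at least 66.9-fold higher in WT and at least 9.18-fold higher in KO cells, against a floor of 3 reads over the group, and its KO call was lost in many alternatives (adjusted p 0.0568 to 0.164). With IFNγ, KO minus WT was -2.30 for Apol9a and -2.92 for Apol9b, and limma called neither (adjusted p = 0.128 for each). Voom called 2 genes of this list there, beside 87 of all 10981 genes.

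Among the microglia and macrophage markers Aif1, an actin-binding protein of activated microglia, rose by 3.57 in WT (adjusted p = 1.38e-08) and 3.56 in KO cells (adjusted p = 1.32e-08). Trem2, a lipid-sensing receptor that also binds APOE, fell by 0.85 in WT (adjusted p = 0.00931) and fell by 0.88 in KO cells (adjusted p = 0.00719). The Trem2 call was lost without WT medium B (adjusted p = 0.0634) or WT IFNγ B (0.074) in WT cells and without KO IFNγ A (0.0532) in KO cells.

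Fabp4, a lipid chaperone of adipocytes and macrophages, was the only gene of the lists that limma called between genotypes. It was the only one of 8 adipocyte and muscle markers measured well enough to test. The level was lower in KO than in WT cells by -1.48 with IFNγ (SE 0.32, adjusted p = 0.0438) and by -1.33 in medium (adjusted p = 0.0927). The call was lost without WT IFNγ B (0.0987) or C (0.102) or KO IFNγ A (0.207) or B (0.0579), in the fit of the treated groups alone (0.142), with no filter (0.075) and with a pseudocount of 0.5 (0.0528). Between treated genotypes all 16 tested genes of the ester and lipid droplet list had a value below 0 (median -0.23 beside -0.004 over all genes), with 0 called by limma, 6 at an unadjusted p under 0.05 and 1 called by voom, beside 1317 and 87 of all 10981 genes.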
